A study of Homo sapiens with 6 samples.

Results

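The lysyl oxidases, the BMP1/tolloid proteinases and the procollagen C-proteinase enhancers were followed in BT549 cells after knockdown of BNC2. The set held 10 genes, chosen by symbol: LOX, LOXL1, LOXL2, LOXL3, LOXL4, BMP1, TLL1, TLL2, PCOLCE and PCOLCE2. All 10 were present among the 23346 genes counted, and 7 of them passed the filter on low counts (over 1 CPM, the reads of a gene scaled to library size, in at least 3 libraries), as did 12186 genes in all. BT549 is a mesenchymal-like human breast cancer cell line. In 3 replicates the cells had received a mix of 3 BNC2 siRNAs, and in the other 3 a negative control siRNA (NC siRNA). Transfection was at 20 nM and the cells were sequenced 6 d later. The methods call the replicates biological, and the labels do not say whether they were separate cultures, so the p-values measure the spread between these samples. All 6 libraries came from 1 cell line and no other treatment was applied.

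Fibrillar procollagens are secreted with propeptides at both ends, and they assemble into fibrils once the propeptides are removed. BMP1 and the tolloid-like proteinase TLL1 cut off the C-propeptide, and PCOLCE and PCOLCE2 bind procollagen and raise the rate of that cut. TLL2 is another tolloid-like proteinase. BMP1-type proteinases also cleave the LOX precursor to its active form. LOX and LOXL1 to LOXL4 are copper-dependent amine oxidases that convert lysine and hydroxylysine side chains of collagen and elastin to aldehydes, from which the crosslinks of the matrix form. The family is much studied in breast cancer for its part in matrix stiffening and spread.

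The libraries held between 16093978 and 18246254 reads assigned to genes, and 3 counts, the limit that a count of 0 allows, corresponded to 0.168 to 0.191 CPM. The 6 counts of BNC2, the targeted gene, gave 65.6, 51.5 and 58.6 CPM with NC siRNA and 35.5, 36.6 and 41.6 CPM with BNC2 siRNA, so 64.6% of the control level remained (log2 fold change -0.63, SE 0.09, adjusted p = 8.2e-06, edgeR). The 4 mesenchymal markers summed to between 4030 and 4116 CPM with NC siRNA and to between 4846 and 5077 CPM with BNC2 siRNA. The 5 epithelial markers summed to 10.4 to 11.3 CPM and to 1.22 to 1.86 CPM, with EPCAM and ESRP1 at 0 in every library. CDH3 went from a mean of 10.3 to 0.428 CPM, while ESRP2, below the filter, was at 0.321 and 1.05 CPM. The 4 leukocyte markers summed to 1.75 to 2.25 CPM and to 0.872 to 1.02 CPM, and the 3 endothelial markers to 0.241 to 0.56 CPM and to 0 to 0.407 CPM, with CDH5 at 0. The part of the epithelial and leukocyte marker levels in the results was not tested. Fewer cells of a type and less RNA per cell cannot be told apart in these bulk libraries.

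The lysyl oxidases are paralogs, so whether a 75-base read can come from more than 1 member was checked first. None of the 45 pairs among the 10 members shared a 75-base word in their exons on GRCh37. LOX and LOXL1, which moved in opposite directions below, share a run of 22 identical coding bases at most. That run is shown because it is where reads of the 2 genes could be hardest to tell apart. It lies in a 90-base window of exon 1 of each gene, at chr5:121413484-121413573 on the minus strand (LOX) and at chr15:74219223-74219312 on the plus strand (LOXL1), both in coding sequence. Of the 90 bases, 71 (78.9%) are identical. Capitals mark the shared run in LOX, and all bases identical to LOX in LOXL1.
LOX: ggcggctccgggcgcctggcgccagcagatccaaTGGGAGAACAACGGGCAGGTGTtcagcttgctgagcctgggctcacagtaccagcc
LOXL1: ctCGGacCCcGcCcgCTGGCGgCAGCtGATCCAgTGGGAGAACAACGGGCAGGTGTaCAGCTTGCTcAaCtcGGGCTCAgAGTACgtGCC

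All 7 members that passed the filter differed between the groups, 4 of them higher and 3 lower after BNC2 knockdown (edgeR quasi-likelihood test, Benjamini-Hochberg adjustment over all 12186 genes). Of all genes tested, 72.9% were called, 36.6% higher and 36.2% lower, so a call of this kind was the common outcome in this comparison. The values of the 3 BNC2 siRNA libraries did not overlap those of the 3 NC libraries for any of the 7 members, which was also so for 74.9% of the genes tested. LOX, LOXL2, TLL1 and PCOLCE were up-regulated, and LOXL1, BMP1 and PCOLCE2 were down-regulated. Each of the 3 functional groups thus held members that rose and members that fell. The median log2 fold change of the 7 was 0.52, against 0.0 over all genes tested. The median size of a change, whatever its sign, was 0.44 over all genes, and 18.1% of genes changed at least 2-fold. TLL1 changed more than 89.2% of the genes tested, LOXL1 more than 83.6%, PCOLCE2 more than 74.7% and BMP1 more than only 38%.

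**Figure D1:**
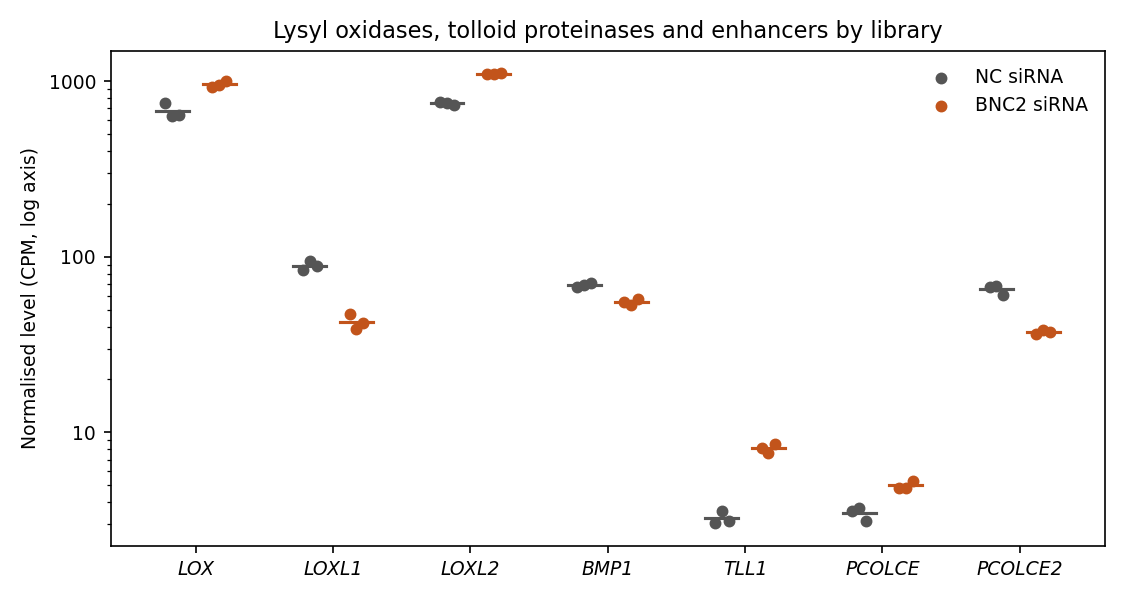
Level of each of the 7 members that passed the filter (CPM, log axis) in the 3 NC siRNA and 3 BNC2 siRNA libraries. Points are libraries and horizontal lines are group means. LOX and LOXL2 lie highest in both groups, and the groups are separate for each gene shown.

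LOX, the founding member of the family, lies on chromosome 5 of GRCh37 (121398890 to 121414108, minus strand). It was counted at 747, 629.8 and 641 CPM with NC siRNA and at 932, 954 and 1008 CPM with BNC2 siRNA. The lowest BNC2 siRNA library stood above the highest control library, which itself stood apart from the other two. Its mean rose from 673 ± 64.7 to 965 ± 39.1 CPM (SD, n = 3 per group), 143% of the control level. The log2 fold change was 0.52 (SE 0.07, adjusted p = 2.3e-06, edgeR). LOX was among the most abundant transcripts of the cells, above 98.5% of the genes tested in CPM per kb of exon.

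LOXL2, a family member with scavenger receptor domains, was the most abundant of the 10 per length. It lies on chromosome 8 (23154410 to 23282841, minus strand). Its CPM were 763, 748 and 734 with NC siRNA and 1104, 1094 and 1109 with BNC2 siRNA. The replicates lay close together in both groups, at 748 ± 14.2 and 1102 ± 7.6 CPM (SD, n = 3). The log2 fold change was 0.56 (SE 0.05, adjusted p = 4.8e-08, edgeR), 147% of the control level. The GENCODE annotation also places ENTPD4 transcripts on the same strand over 39546 bases of the LOXL2 gene span. The authors counted with UCSC gene annotation, and whether it holds this overlap was not checked. Where it does, reads that fit both genes were counted for neither. The ratio of LOX to LOXL2 per length was 0.961 ± 0.0768 before and 0.936 ± 0.0345 after knockdown, with overlapping libraries (exact permutation test, two-sided p = 0.8, adjusted p = 0.85 over 17 quantities).

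LOXL1, which is best known for elastic fibre upkeep, moved the other way. It lies on chromosome 15 (74218330 to 74244478, plus strand). LOXL1 stood at 83.9, 94.0 and 88.9 CPM in the controls and at 47.3, 38.7 and 42.0 CPM with BNC2 siRNA. Every library with BNC2 siRNA was below every control. The mean dropped from 88.9 ± 5.06 to 42.7 ± 4.36 CPM (SD, n = 3), to 48% of the control level (log2 fold change -1.06, SE 0.08, adjusted p = 2.8e-09, edgeR).

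LOXL3 and LOXL4, the remaining oxidases, were at the limit of detection. Neither passed the filter, and neither could be said to differ at this depth. LOXL3 had 1, 2 and 1 counts with NC siRNA and 0, 1 and 0 with BNC2 siRNA, a ratio of 0.258 after scaling with an exact 95% counting interval of 0.00524 to 2.61. LOXL4 had 0, 0 and 7 counts against 3, 2 and 1, a ratio of 0.884 (interval 0.245 to 3.07). Intervals cover counting error only. The LOXL3 gene span overlaps HTRA2 by 1093 bases and DOK1 by 6665 bases, both on the opposite strand. On the strand opposite to LOXL3 there were 259, 266 and 276 reads with NC siRNA, against 201, 206 and 144 after knockdown. The counts used are those of the strand of the gene.

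Summed over the 5 oxidases, the family level was 284, 263 and 262 CPM per kb with NC siRNA and 364, 364 and 377 CPM per kb with BNC2 siRNA. The sum was 137% of the control level (269.7 ± 12.4 to 368 ± 7.53, SD, n = 3; exact permutation test, two-sided p = 0.1, the smallest that 3 against 3 can give, adjusted p = 0.121 over 17 quantities). LOXL1 held 9.09 ± 0.873% of it in the control and 3.19 ± 0.344% after knockdown, with no overlap of libraries (exact permutation p = 0.1). The share of LOXL2 went from 46.4 ± 1.34% to 50.0 ± 0.774% (exact permutation p = 0.1), and that of LOX from 44.5 ± 2.23% to 46.8 ± 1.01%, where the libraries overlapped (exact permutation p = 0.3). LOX exceeded LOXL1 per length 5.79-, 4.35- and 4.69-fold in the controls, and 12.8-, 16- and 15.6-fold after knockdown (exact permutation p = 0.1). LOX and LOXL2 together made up nearly all of the family transcript in both groups.

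**Figure D2:**
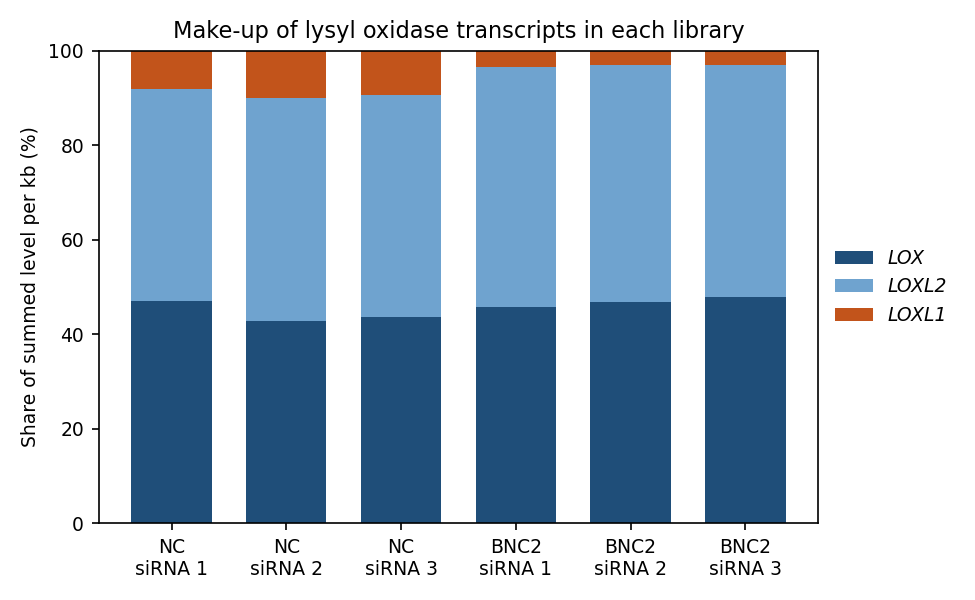
Share (percent) of LOX, LOXL2 and LOXL1 in the summed lysyl oxidase level, in CPM per kb of exon, for the 6 libraries. LOXL1 takes 8.12 to 9.82% of the bar with NC siRNA and 2.92 to 3.58% with BNC2 siRNA, and LOX and LOXL2 take nearly all the rest.

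BMP1, the main procollagen C-proteinase, lies on chromosome 8 (22022653 to 22069839, plus strand). It was measured at 67.1, 68.8 and 70.6 CPM with NC siRNA, and at 55.1, 53.2 and 57.2 CPM with BNC2 siRNA. The drop was small but larger than the spread between replicates, from 68.9 ± 1.74 to 55.2 ± 1.99 CPM (SD, n = 3), to 80.1% of the control level. The log2 fold change was -0.32 (SE 0.06, adjusted p = 0.000242, edgeR).

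TLL1, a close relative of BMP1, rose the most of the 10. It lies on chromosome 4 (166794389 to 167025609, plus strand). TLL1 had 54, 64 and 52 counts in the controls and 140, 135 and 135 after knockdown, which is 3.04, 3.58 and 3.13 CPM against 8.14, 7.62 and 8.6 CPM. The groups were far apart relative to the spread within them. The mean went from 3.25 ± 0.291 to 8.12 ± 0.49 CPM (SD, n = 3), 249% of the control level (log2 fold change 1.32, SE 0.15, adjusted p = 5.1e-07, edgeR).

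TLL2, the third tolloid, had only 2, 5 and 8 counts against 5, 4 and 2, a ratio of 0.756 with an exact 95% counting interval of 0.314 to 1.76. BMP1 was far more abundant than TLL1. Per length BMP1 held 95.7% of the tolloid level in the control and 88.4% after knockdown, and TLL1 3.94 ± 0.339% and 11.3 ± 0.255%. The summed tolloid level was 10.2 ± 0.275 CPM per kb with NC siRNA and 8.83 ± 0.336 with BNC2 siRNA, 86.8% (SD, n = 3; exact permutation p = 0.1, adjusted p = 0.121).

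The enhancers split in the same way, with the abundant member falling and the scarce member rising. PCOLCE2 (chromosome 3, 142534764 to 142608048, minus strand) was at 67, 68.4 and 60.9 CPM with NC siRNA and at 36.3, 38.4 and 37.3 CPM with BNC2 siRNA. Its mean fell from 65.4 ± 3.98 to 37.3 ± 1.04 CPM (SD, n = 3), to 57% of the control (log2 fold change -0.81, SE 0.07, adjusted p = 2.2e-08, edgeR). PCOLCE (chromosome 7, 100199986 to 100205798, plus strand) was at 3.55, 3.7 and 3.13 CPM with NC siRNA, and at 4.83, 4.85 and 5.28 CPM with BNC2 siRNA.

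The rise of PCOLCE, from 3.46 ± 0.294 to 4.99 ± 0.257 CPM (SD, n = 3), rested on 52 to 66 counts per control library and 83 to 86 per BNC2 siRNA library. The log2 fold change was 0.52 (SE 0.16, adjusted p = 0.00752, edgeR), the least certain of the 7. Per length the enhancers summed to 19.6 ± 1.21 CPM per kb in the control and to 12.1 ± 0.306 after knockdown, 61.6% (exact permutation p = 0.1, adjusted p = 0.121). PCOLCE2 held 94.7% of that sum in the control and 87.6% after knockdown.

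Compared per kb of exon, the order of the members in the control was LOXL2 (125 CPM per kb), LOX (120.2), LOXL1 (24.5), PCOLCE2 (18.5), BMP1 (9.74), PCOLCE (1.03) and TLL1 (0.401). LOXL2 and LOX overlapped between libraries, and no other neighbours in that order did. After knockdown LOXL2 stood at 184 CPM per kb, LOX at 172, LOXL1 at 11.7, PCOLCE2 at 10.6, BMP1 at 7.81, PCOLCE at 1.49 and TLL1 at 1. Here LOXL1 and PCOLCE2 overlapped. With the longest transcript in place of all exons as the length, the mean of PCOLCE2 stood at or above LOXL1 in both groups. The overlaps also changed with that length. LOXL2 (197 to 205 CPM per kb) and LOX (124 to 147) were then separate in the control. PCOLCE2 and LOXL1 overlapped in the control and were separate after knockdown.

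The fibrillar procollagens, the substrates of these enzymes, were compared with the enzymes on the same scale. Of 11 such genes 7 passed the filter, of which 5 rose and 1 fell. COL11A2 did not pass the test, and its sign turned when libraries were scaled by total counts alone. The median of the 7 log2 fold changes was 1.91, and COL2A1, COL5A3, COL11A1 and COL24A1 were below the filter. COL5A1 rose from 331 ± 27.2 to 4234 ± 98.1 CPM (log2 fold change 3.68, SE 0.07, adjusted p = 2.0e-16), COL5A2 from 703 to 3032 CPM (2.11), COL1A2 from 1184 to 4640 CPM (1.97) and COL3A1 from 556 to 2090 CPM (1.91). COL1A1 went from 1903 ± 144 to 1106 ± 60.7 CPM (-0.78, adjusted p = 1.2e-08, edgeR). It is named here because it was the only tested procollagen called lower, and so was chosen after its values were seen. Summed per length, the fibrillar procollagens rose from 533 ± 3.66 to 1663 ± 13.9 CPM per kb, 3.12-fold (exact permutation p = 0.1, adjusted p = 0.121).

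Set against that sum, transcripts of each enzyme group were scarcer after knockdown. The lysyl oxidases amounted to 0.506 ± 0.0254 of the fibrillar procollagen level in the control and to 0.221 ± 0.0038 after it, 43.7% of the control ratio (SD, n = 3; exact permutation p = 0.1). The ratio of the tolloids fell to 27.8% of the control, from 0.0191 to 0.00531, and that of the enhancers to 19.7%, from 0.0367 to 0.00725 (exact permutation p = 0.1 for each). These are transcript ratios, and they hold for every library: none of the 3 ratios overlapped between groups. Over the same comparison the lysyl oxidase sum itself was higher, and the tolloid and enhancer sums were 86.8% and 61.6% of the control.

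**Figure D3:**
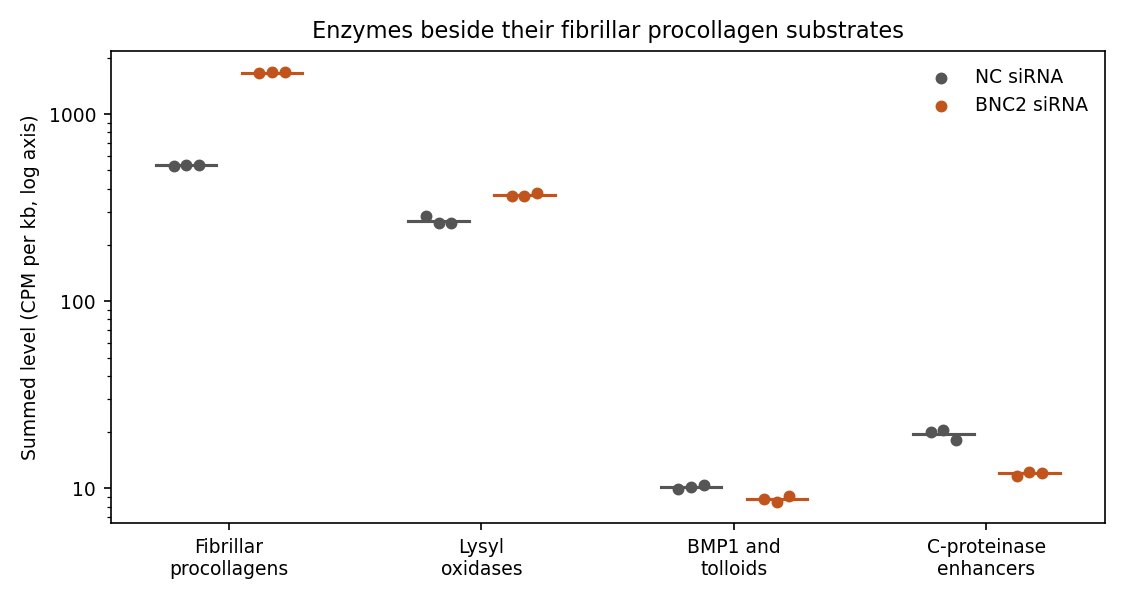
Summed level in CPM per kb of exon (log axis) of the fibrillar procollagens, the lysyl oxidases, the tolloid proteinases and the C-proteinase enhancers. Points are the 6 libraries and lines are group means. The procollagen sum is 3.12-fold higher with BNC2 siRNA, the lysyl oxidase sum reaches 137% of the control, and the tolloid and enhancer sums are lower.

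The N-proteinases, which remove the other propeptide, gave 2 tested genes of 3. ADAMTS2 went from 6.35 to 8.18 CPM (log2 fold change 0.37, adjusted p = 0.0169, edgeR), a call that was lost when libraries were scaled by total counts alone (0.29, adjusted p = 0.0557) or when replicate 3 of NC siRNA was left out (adjusted p = 0.0941). ADAMTS14 went from 18.1 to 14.1 CPM (-0.36, adjusted p = 0.00484). The substrates and partners of the lysyl oxidases, 7 genes with 5 tested, gave 2 higher and 3 lower and a median log2 fold change of -0.33. FBLN5, which brings LOXL1 to elastic fibres, fell from 3.6 to 1.86 CPM (-0.95, SE 0.24, adjusted p = 0.00183) and THBS1, a matricellular protein, from 3434 to 1839 CPM (-0.90, adjusted p = 1.7e-09). FN1, fibronectin, rose from 783 to 1023 CPM (0.39), and EFEMP2, a partner of LOX in elastic fibre assembly, from 48.2 to 61.5 CPM (0.35, adjusted p = 0.00114). POSTN, periostin, was the third gene to fall. ELN was not tested, with 1 count in a single control library.

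Copper reaches the lysyl oxidases through an importer, a chaperone and pumps of the secretory pathway, and all 4 of these genes were tested. ATOX1, the chaperone that hands copper to the pumps, had 1035, 1228 and 1304 counts with NC siRNA and 270, 203 and 158 with BNC2 siRNA, a drop to 18.2% of the control (log2 fold change -2.46, SE 0.13, adjusted p = 6.6e-11, edgeR). The importer SLC31A1 rose from 84.2 ± 3.14 to 123 ± 7.01 CPM (0.55, adjusted p = 6.0e-07). The pump ATP7B rose from 6.22 to 12.5 CPM (1.0, adjusted p = 5.0e-06). ATP7A, the pump that loads lysyl oxidases in most cells, was at 27.3 and 28.4 CPM (0.05, adjusted p = 0.667), and its sign turned with scaling by total counts alone. The median of the 4 was 0.3.

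Other substrates and modulators of the BMP1/tolloid proteinases gave 7 tested genes of 11, with 3 higher and 3 lower and a median log2 fold change of 0.34. DCN, the proteoglycan decorin, had 46, 47 and 47 counts with NC siRNA and 7, 2 and 1 after knockdown (-3.72, SE 0.39, adjusted p = 2.5e-07). The size of that drop rests on few counts: leaving out replicate 1 of BNC2 siRNA gave -4.79, and leaving out replicate 3 gave -3.35. DCN fell below the filter when any NC library was left out, and the list then had 2 genes lower. SFRP2, a Wnt modulator that also binds the proteinase, went from 12.7 to 3.53 CPM (-1.85, adjusted p = 3.1e-09). LTBP1, the latent TGF-β binding protein, rose from 46.1 to 159.6 CPM (1.79, adjusted p = 5.2e-13). COL7A1 and GDF11 were also higher, and MSTN was not called. CHRD, chordin, the dorsal-ventral patterning substrate of the tolloids, was not tested, with 12, 10 and 11 counts against 1, 0 and 0.

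The collagen lysyl hydroxylases act before the oxidases, since hydroxylysine is among the residues that the latter oxidize. All 3 were tested. PLOD1 rose from 202 to 427 CPM (1.08, adjusted p = 3.4e-11) and PLOD3 from 165 to 306 CPM (0.89, adjusted p = 3.1e-10). PLOD2, which acts on the telopeptides, was at 237 ± 23.8 and 210.0 ± 5.87 CPM, and its libraries overlapped. Its call as lower (-0.17, adjusted p = 0.0292) was lost with a replicate block (adjusted p = 0.0684) and in fits that left out 1 library, namely replicate 1 of NC siRNA (adjusted p = 0.0804) or replicates 1 or 3 of BNC2 siRNA (0.0942 and 0.0701).

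**Figure D4:**
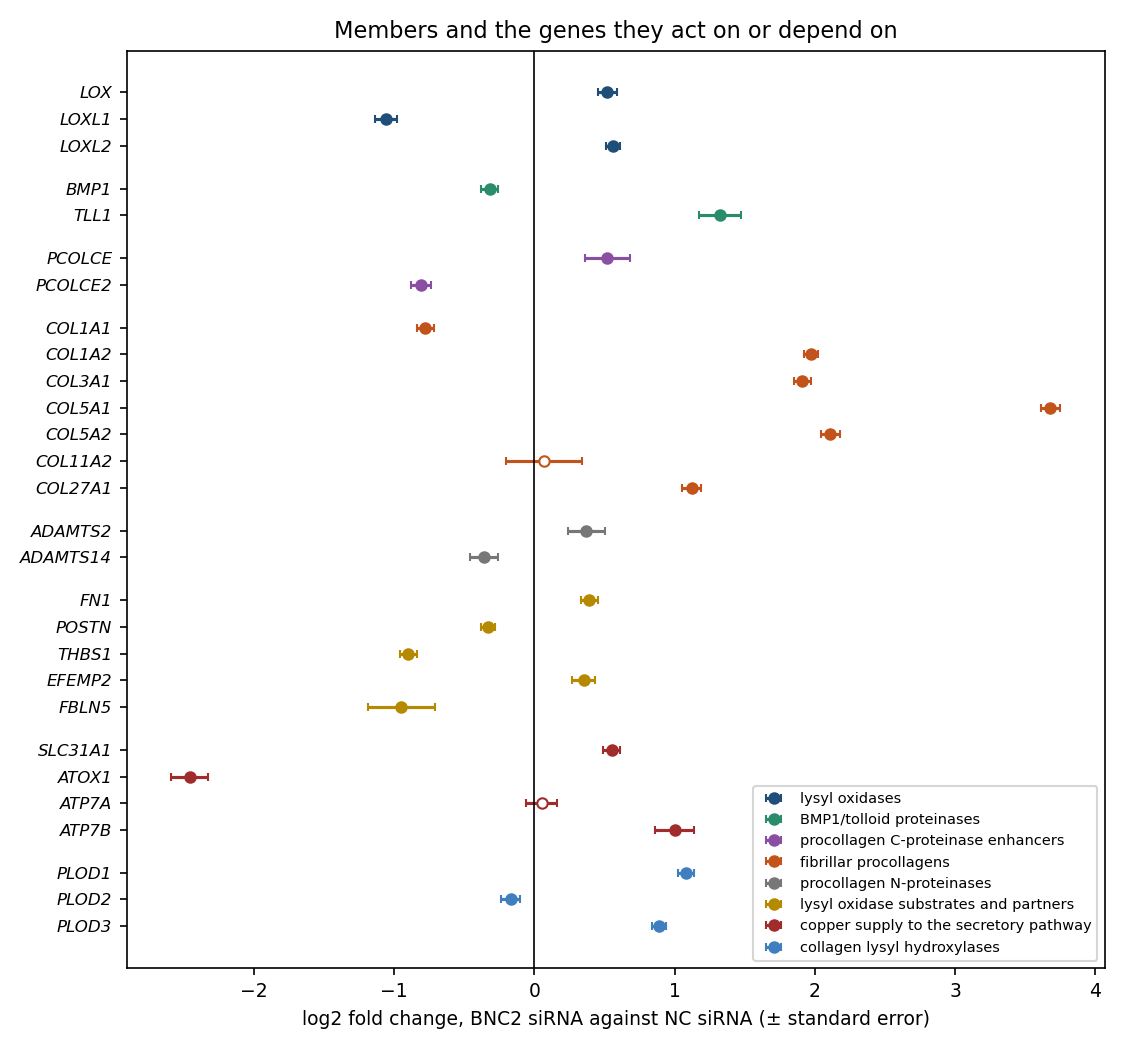
Log2 fold change (BNC2 siRNA against NC siRNA) of the tested members and of the tested fibrillar procollagens, N-proteinases, lysyl oxidase partners, copper genes and lysyl hydroxylases, with SE as bars and open points for genes not called. The members lie on both sides of 0, while 5 of the 7 procollagens lie between 1.12 and 3.68.

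Promoters of 8 of the 10 members were matched by symbol in RefSeq (GRCh38.p14), and the 250 bases before the start are given for 4 of them. LOX and LOXL1, and TLL1 and PCOLCE2, moved in opposite directions. Other pairs did so too, among them PCOLCE and PCOLCE2, so the 4 windows are examples picked with the values known. Capitals mark matches, on either strand, to 5 motifs, none of which contains another. The share of 27305 promoters of this length that hold each is 11.2% for TATAAA (the TATA box), 42.2% for GGGCGG (the GC box), 4.2% for TGACTCA (an AP-1 site), 18.6% for ACGTG (the core of the hypoxia response element) and 17.5% for CACCTG (an E-box). For LOX 3 starts are listed, and the most upstream was used.
LOX (chr5:122078260-122078509, minus strand): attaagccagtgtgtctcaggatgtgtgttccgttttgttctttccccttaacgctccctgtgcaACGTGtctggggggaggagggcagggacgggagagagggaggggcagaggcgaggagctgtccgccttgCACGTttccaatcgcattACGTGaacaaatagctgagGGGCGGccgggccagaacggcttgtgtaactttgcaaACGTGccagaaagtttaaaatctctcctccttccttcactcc
LOXL1 (chr15:73926212-73926461, plus strand): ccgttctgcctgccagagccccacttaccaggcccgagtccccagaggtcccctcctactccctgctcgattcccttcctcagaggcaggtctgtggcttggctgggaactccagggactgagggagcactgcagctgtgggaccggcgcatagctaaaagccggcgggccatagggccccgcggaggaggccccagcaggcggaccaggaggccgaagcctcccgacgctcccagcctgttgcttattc
TLL1 (chr4:165872987-165873236, plus strand): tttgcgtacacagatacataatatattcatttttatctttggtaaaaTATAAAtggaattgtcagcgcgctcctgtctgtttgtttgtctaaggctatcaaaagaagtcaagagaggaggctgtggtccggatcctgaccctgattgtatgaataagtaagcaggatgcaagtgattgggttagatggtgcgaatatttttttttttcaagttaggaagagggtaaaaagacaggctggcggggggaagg
PCOLCE2 (chr3:142889084-142889333, minus strand): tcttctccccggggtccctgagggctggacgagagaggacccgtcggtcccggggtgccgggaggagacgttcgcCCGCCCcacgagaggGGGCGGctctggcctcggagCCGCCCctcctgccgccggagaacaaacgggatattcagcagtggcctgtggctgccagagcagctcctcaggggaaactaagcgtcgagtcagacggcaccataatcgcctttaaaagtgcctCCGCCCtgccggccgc

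The LOX window held 4 ACGTG matches, at 185, 116, 98 and 42 bases upstream, and 1 GGGCGG. At least 4 ACGTG matches were found in 194 promoters (0.71%). That cut was the count of LOX itself, chosen after the windows were searched, so the share is not a test. No such share was worked out for repeats of the other motifs. The LOXL1 window held none of the 5 motifs. TLL1 had 1 TATAAA, 203 bases upstream, and PCOLCE2 had 4 GGGCGG matches. The letters are a description of these windows and say nothing of which factor is bound.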

How the data were processed

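The members and lists were chosen with earlier results of these data known. The authors deposited gene-level read counts (whole reads per gene, not normalized) from poly(A) RNA sequenced single-end with 75 cycles on hg19. The aligner named in the submitters' processing notes is STAR 2.6.1d. Transfection reagents are given differently by the labels (Lipofectamine 2000) and the methods (RNAiMax). The table equals the reverse-strand counts for all 23346 genes. Between 37.7% and 41.1% of reads were not assigned to a gene and stayed out of library sizes. These include reads that mapped to several places, 8.68% to 9.71% of all reads.

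Counts were fitted with edgeR 4.0.16 (R 4.3.3, TMM factors, quasi-likelihood test) on the 12186 genes above 1 CPM in at least 3 libraries, with a Benjamini-Hochberg adjusted p of at most 0.05. The common coefficient of variation between replicates was 6.16%. SE is the log2 fold change divided by the square root of F. Levels between genes are CPM per kb of GENCODE exons on GRCh37. Sums and ratios were compared by exact permutation tests over samples. Alternatives were the edgeR likelihood ratio test, DESeq2 1.42.0, DESeq2 size factors, total counts only, no filter, filterByExpr, a replicate block, both-strand counts, the longest transcript as the length, and leaving out each library. Named were all members, BNC2, and up to 4 called genes of largest change per list, with the names of those not called. Scripts were tested on simulated data. Some items of these lists are not reported here.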

Additional observations from a re-analysis of the deposited data

How the results depend on the processing

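All 7 tested members kept their direction and their side of the threshold in all 98 combinations of member and setting. Leaving out each library in turn gave log2 fold changes of 0.46 to 0.58 for LOX, 0.53 to 0.57 for LOXL2, -1.14 to -0.99 for LOXL1, -0.36 to -0.29 for BMP1, 1.25 to 1.37 for TLL1, 0.44 to 0.56 for PCOLCE and -0.88 to -0.78 for PCOLCE2. The adjusted p of PCOLCE reached 0.0424 without NC replicate 3. Same-numbered libraries did not deviate together (r = -0.21, -0.081 and -0.13). No library correlated best with the library of its own number. Deviations from means of 3 libraries cannot show whether same-numbered libraries were prepared together. With the replicate block 4245 genes were higher and 4155 lower, against 4462 and 4417, and PCOLCE had an adjusted p of 0.0182.

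With total counts only, the log2 fold change of COL11A2 was -0.01 and that of ATP7A -0.02, no N-proteinase was higher (0), and the sums relative to the control were 1.3 (lysyl oxidases), 0.824 (tolloids), 0.585 (enhancers) and 2.96 (fibrillar procollagens). Without a filter 6 fibrillar procollagens were higher and 2 lower, and 2 N-proteinases were higher. In that setting 4 of the other tolloid substrates and modulators were lower. With filterByExpr 6 fibrillar procollagens and 2 N-proteinases were higher. Among lysyl hydroxylases 0 were lower with the replicate block. With the longest transcript, the procollagen sum was 2.99-fold, the BMP1, TLL1 and PCOLCE2 shares moved by -5.28, 5.31 and -8.55 percentage points, and the ratios to procollagen were 0.458 (lysyl oxidases) and 0.21 (enhancers) of the control. Leaving out a library gave log2 fold changes of -0.05 to 0.16 for COL11A2 and -0.08 to 0.18 for ATP7A, and counts of 0 to 1 for higher N-proteinases and for lower lysyl hydroxylases. The cause was not tested in any of these. Depth limits LOXL3, LOXL4 and TLL2, which had at most 8 counts in a library.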

Other observations

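HTRA2, which encodes a mitochondrial serine protease and overlaps LOXL3 on the other strand, had 513, 488 and 464 counts with NC siRNA and 394, 380 and 323 with BNC2 siRNA. Counted without regard to strand, HTRA2 had 253, 219 and 176 counts against 195, 179 and 181, a total 53% below the stranded one over the 6 libraries. The unstranded totals of LOXL1 and LOXL2 were 4.34% and 6.7% below their stranded totals.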
